A study of Mus musculus with 15 samples.

Results

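The genes described here encode 33 proteins of the G1/S transition and of DNA replication. They form a list of named genes, and a probe counted as a member when its identifier was a RefSeq transcript of a listed gene. All 33 genes were found, by 51 probes, among the 23462 gene symbols named on the array, and all 33 were well above background on all 15 arrays. The cells were Mouse Embryonic Fibroblasts (MEFs) of the Balb/c/3T3 line, clone A31, an immortalized line that is 1 clone and divides in culture, and their RNA was read on 1-color whole Mouse 60-mer microarrays. Each of 5 groups holds 3 arrays: untreated MEFs, called controls, or MEFs given TNFα (10 ng/ml), TGFβ1 (5 ng/ml), IL1β (1 ng/ml) or IL6 (20 ng/ml) with its soluble receptor sIL6Rα (25 ng/ml). All groups were grown in fetal calf serum, and no genetic modification is described. The stimulation was 24 h for the control, TNFα and TGFβ1 arrays per the study's methods, while for the IL1β and IL6/sIL6Rα arrays the labels allow 24 h or a longer time, so that these may differ in time from their controls. The study describes its arrays as biological replicates from independent experiments, but the labels do not say which arrays shared an experiment.

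A cell that passes from G1 into S phase first licenses its origins. The origin recognition complex, with CDC6 and CDT1, loads the ring-shaped MCM helicase on DNA, and CDC45 and the GINS proteins then turn the helicase on. At the fork, DNA polymerases, the sliding clamp PCNA and its loader RFC, the flap nuclease FEN1 and DNA ligase I copy and join the strands, while ribonucleotide reductase, thymidylate synthase and thymidine kinase supply the building blocks. Many of these genes are transcribed together in late G1 by E2F factors, once cyclins have released E2F from the retinoblastoma protein. TGFβ is known to hold many epithelial cells in G1, whereas fibroblasts can divide in its presence.

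Promoters were looked at because E2F is the shared regulator of this gene class. The RefSeq table of promoters (GRCm38.p6, 250 bases before to 50 bases after each start) held 28 of the 33 genes, with 34 starts. The E2F words TTTCCCGC, TTTGGCGC, TTTCGCGC and TTTGCCGC were searched on both strands, where neighbouring matches may overlap. At least 1 word was found for 13 of these 28 genes (46.4%) and in 13 of the 34 promoters (38.2%), beside 744 of all 32851 promoters of the same length (2.26%). Among the licensing genes these were *Mcm3*, *Mcm5*, *Mcm6*, *Mcm7*, *Orc1*, *Cdc6* and *Cdt1*, and the others were *Pola1*, *Rfc3*, *Lig1*, *E2f2*, *Dtl* and *Uhrf1*. The promoters of *Lig1*, *Tk1*, *Mcm5* and *Uhrf1* are shown, 5′ to 3′ on the strand of the gene. Of the genes with a promoter in that table, these were named most often in the comparisons given further on, with ties broken by the smallest p-value. They are also the genes with a q-value below 0.05 between TNFα and TGFβ1 arrays. For *Lig1* and *Uhrf1* the start shown was chosen because it holds a word, and their other starts held none. Capitals mark the E2F words.
*Lig1* (chr7:13278576-13278875, plus strand, 1 of 3 starts): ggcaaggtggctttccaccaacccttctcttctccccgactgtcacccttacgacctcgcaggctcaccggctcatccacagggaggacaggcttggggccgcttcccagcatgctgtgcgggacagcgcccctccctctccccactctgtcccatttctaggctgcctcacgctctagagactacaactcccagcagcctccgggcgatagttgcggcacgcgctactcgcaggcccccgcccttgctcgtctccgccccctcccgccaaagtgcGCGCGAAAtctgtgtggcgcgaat
*Tk1* (chr11:117825965-117826264, minus strand): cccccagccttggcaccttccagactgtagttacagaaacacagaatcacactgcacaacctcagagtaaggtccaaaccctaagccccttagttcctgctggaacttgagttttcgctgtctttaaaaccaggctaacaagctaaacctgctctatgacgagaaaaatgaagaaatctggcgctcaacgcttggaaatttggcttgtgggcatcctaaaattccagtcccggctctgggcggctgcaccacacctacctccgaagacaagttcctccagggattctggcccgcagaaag
*Mcm5* (chr8:75109259-75109558, plus strand): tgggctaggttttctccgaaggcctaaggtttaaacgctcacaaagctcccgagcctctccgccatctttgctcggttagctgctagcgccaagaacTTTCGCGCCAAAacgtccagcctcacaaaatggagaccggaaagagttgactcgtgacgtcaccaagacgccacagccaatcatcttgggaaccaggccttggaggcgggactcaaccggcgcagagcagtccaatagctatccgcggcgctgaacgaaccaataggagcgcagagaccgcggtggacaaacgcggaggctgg
*Uhrf1* (chr17:56304063-56304362, plus strand, 1 of 2 starts): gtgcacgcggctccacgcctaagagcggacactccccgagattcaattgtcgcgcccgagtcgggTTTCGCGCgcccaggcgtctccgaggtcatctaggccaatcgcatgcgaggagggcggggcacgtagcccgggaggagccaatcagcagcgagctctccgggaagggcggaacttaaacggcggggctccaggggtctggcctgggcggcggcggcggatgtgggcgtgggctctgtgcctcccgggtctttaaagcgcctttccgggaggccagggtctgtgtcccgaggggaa
In *Mcm5* the capitals are 2 words on opposite strands that overlap, and in *Tk1* none of the words lay in this window. A match is a description of the sequence and not a measured binding site.

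Levels are given as log2 brightness minus the 75th percentile of the array, so that 0 is the brightness of that percentile. A log2 difference of 1 is a doubling, and levels of different probes cannot be set against each other. The percentage of probes well above background was 48.3% to 54.9% per array, no spot was saturated, and 29334 probes were tested. All 10 fibroblast markers were well above background on all 15 arrays. So were 3 of 6 leukocyte markers (*Cd68*, *Cd3e*, *Itgam*), 1 of 4 endothelial markers (*Pecam1*) and 0 of 6 epithelial markers. Each marker is given by its probe with the highest mean, and a second *Itgam* probe was well above background on no array. *Ptprc* and *Adgre1* of leukocytes, *Cdh5*, *Kdr* and *Tek* of endothelial cells and *Cdh1* and *Krt5* of epithelial cells were so on no array. Of the other epithelial markers, *Krt18* was well above background on 10 arrays, *Krt8* on 4, *Krt14* on 3 and *Epcam* on 1. For *Krt18* and *Krt8* these held all 3 TGFβ1 arrays. In MEFs grown as a bulk culture, fewer cells in S phase and less RNA per cell cannot be told apart.

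**Figure D1:**
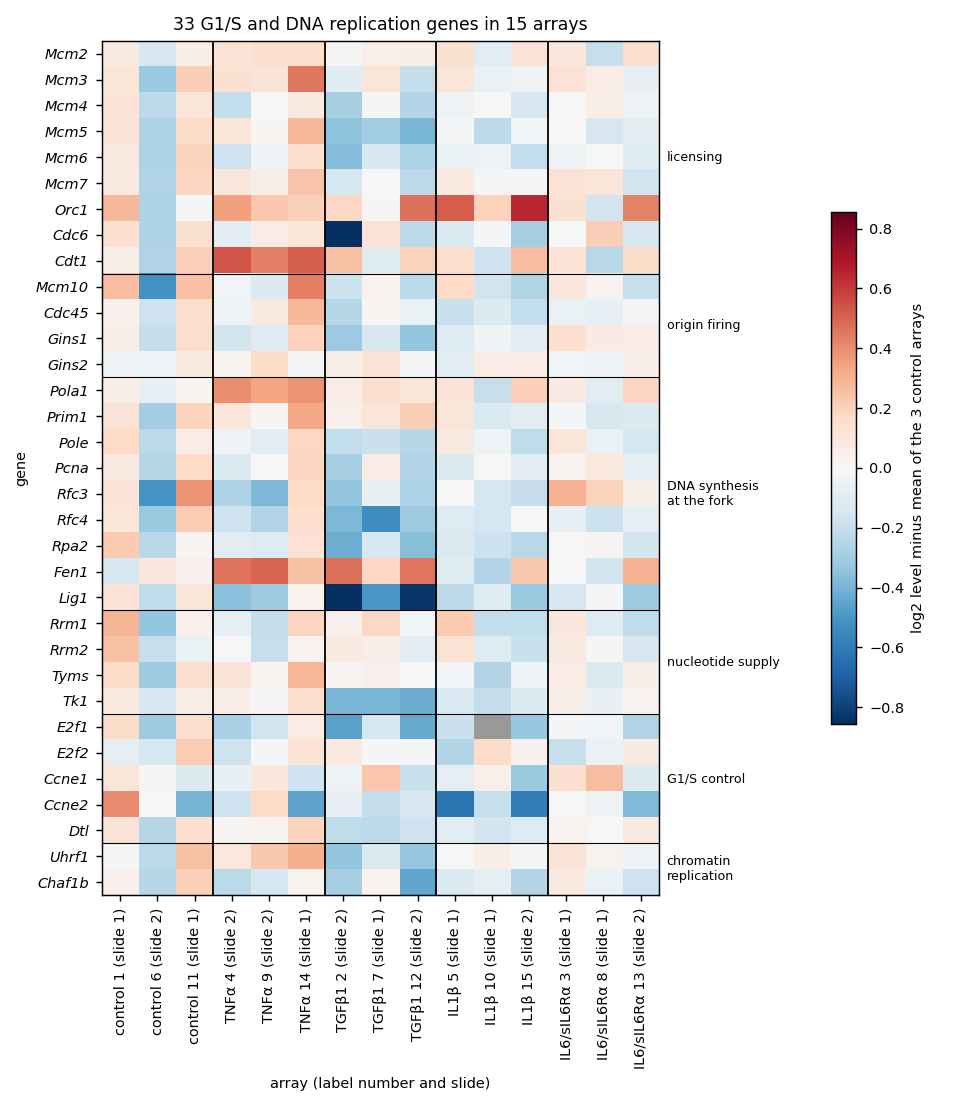
Each cell is the log2 level of 1 gene (rows, ordered by role) on 1 array (columns, by group, label number and slide) minus the mean of the 3 control arrays, red for higher and blue for lower; the grey cell is *E2f1* on IL1β 10, whose spot was left out. *Lig1* and *Tk1* are blue on all 3 TGFβ1 arrays, and control 6 is blue for most genes.

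The replication genes varied little. Their group means spanned a median of 0.29 on the log2 scale from the lowest to the highest of the 5 groups, beside 0.50 for all probes with a value on every array, and the largest span was 0.73, for *Lig1*. Most of the 33 genes lay above the 75th percentile of the array, and the other probes were not matched to them for brightness. A share of brightness in the smaller span was not tested. The 15 arrays lay on 2 slides, and the genes were lower on slide 2 by a median of 0.17, an amount similar to the differences between groups (slide 2 minus slide 1 in a fit with group and slide, -0.17; all probes, -0.09). This difference had a q-value below 0.05 for 16 of the 33 genes and for 10734 of the 29334 probes. It was largest for *Mcm10* (-0.41), which helps to start the helicase, *Rfc3* (-0.36), a subunit of the clamp loader, and *Cdc6* (-0.32), and it was opposite for *Fen1* (0.29). Control 6, the sole control on slide 2, was the lowest of the 3 controls for 30 of the 33 genes and the lowest of all 15 arrays for 10. Comparisons with control all share these 3 control arrays, and the median of the 33 genes is therefore also given within each slide. Fold changes of genes outside the 33 come from the fit without slide, unless an alternative is named. Over the 15 arrays, Pearson's r between pairs of the 32 genes with a value on every array had a median of 0.38 (0.05 and 0.69 at the 25th and 75th percentile of 496 pairs), of 0.52 after removing group means and of 0.43 after removing group means and slide. These pairs share arrays, slides and scaling. *Fen1* had the lowest median r with the others (-0.21).

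With TGFβ1, *Lig1* was the 1 gene of the 33 called, that is with a q-value below 0.05 and an absolute fold-change of at least 1.5. *Lig1* encodes DNA ligase I, which seals the nicks between Okazaki fragments. Its level was 5.10, 4.76 and 5.09 on control arrays 1, 6 and 11, and 4.13, 4.48 and 4.15 on TGFβ1 arrays 2, 7 and 12. All TGFβ1 arrays lay below all controls. The mean fell from 4.98 ± 0.19 to 4.25 ± 0.20 (SD, n = 3 each), a log2 fold change of -0.73 (SE 0.15, 1.66-fold lower, q-value = 0.00426 by limma's moderated test with Benjamini-Hochberg adjustment). Its second probe was 1.42, 1.51 and 1.35 on the controls and 0.78, 0.99 and 0.69 on the TGFβ1 arrays, and was called as well (-0.61, SE 0.11, q-value = 0.00177). Within slide 1 the *Lig1* difference was -0.61 and within slide 2 -0.63, and with the slide as a block it was -0.64 (q-value = 0.000189). The difference was smaller within either slide than over both, and each within-slide value has 1 array in one of its groups (TGFβ1 7 on slide 1, control 6 on slide 2).

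*Tk1*, which encodes the thymidine kinase that salvages thymidine in S phase, passed the q-value and not the fold-change. Its level was 5.46, 5.24 and 5.43 on control arrays 1, 6 and 11, and 4.99, 4.99 and 4.96 on TGFβ1 arrays 2, 7 and 12. The TGFβ1 arrays were nearly equal and all lay below the lowest control. *Tk1* fell by 0.40 on the log2 scale (SE 0.09, 1.32-fold lower, q-value = 0.00861). Its second probe disagreed in the call, since its difference of -0.62 (SE 0.20, q-value = 0.0417) passed both thresholds. Within slide 1 the *Tk1* difference was -0.46 and within slide 2 -0.27. Over 28 alternative fits the largest q-value of *Tk1* by limma's test was 0.0886, so that it did not stay below 0.05 in all.

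**Figure D2:**
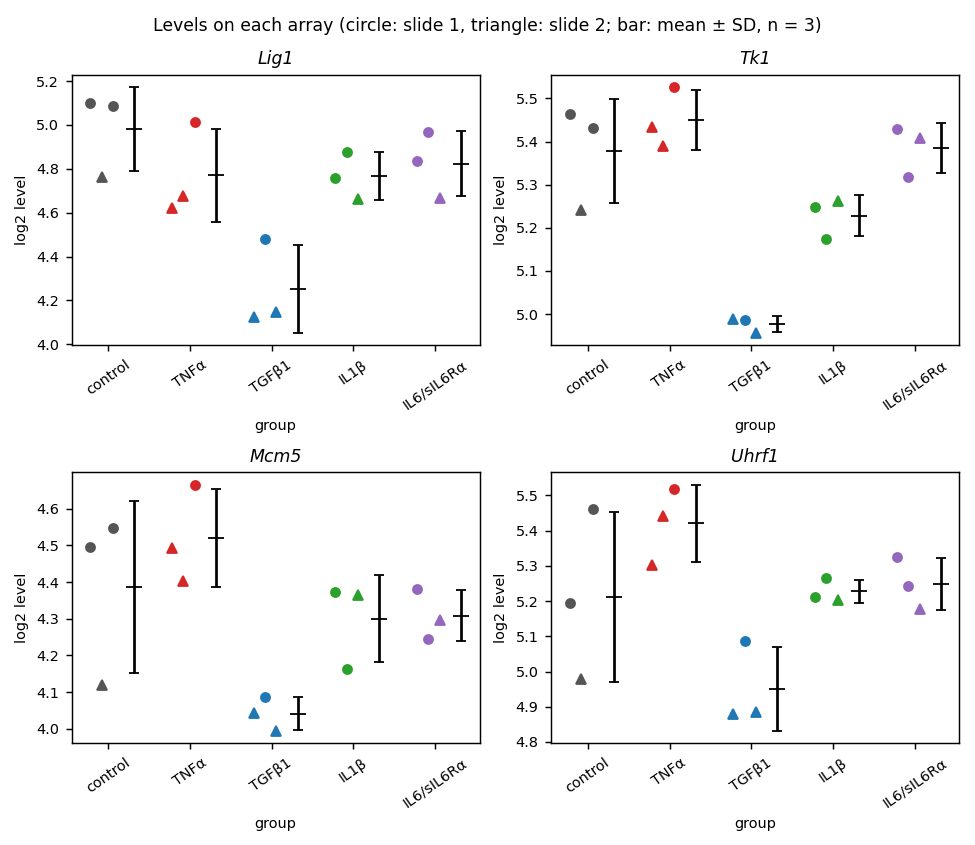
Log2 level of *Lig1*, *Tk1*, *Mcm5* and *Uhrf1* (vertical axes, each with its own range) on each array of the 5 groups, circles for slide 1 and triangles for slide 2, with mean ± SD (n = 3) in black. All 3 TGFβ1 arrays lie below all TNFα arrays for the 4 genes, and below all controls for *Lig1*, *Tk1* and *Mcm5*.

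Among the 33 genes, 0 were called higher and 1 lower with TGFβ1, beside 7.51% and 10.4% of all probes tested. Without the fold-change threshold, 2 were lower (13.2% of all probes). The median log2 fold change of the 33 genes was -0.14 (range -0.73 to 0.37), with 21 values below 0, and that of all probes was 0.07. The next smallest p-values belonged to *Rfc4*, another clamp loader subunit, *Mcm5*, *Fen1* and *Rpa2*, a subunit of the single-strand binding protein RPA, and none passed. *Rfc4* was 4.56, 4.14 and 4.67 on the controls and 4.07, 3.93 and 4.15 on the TGFβ1 arrays, which overlap (-0.41, q-value = 0.0627), and its difference was -0.69 within slide 1 and -0.03 within slide 2. *Mcm5* had a log2 fold change of -0.34 (q-value = 0.0666), and its within-slide differences were -0.43 and -0.10. *Rpa2* gave -0.31 (q-value = 0.113). *Fen1* was the highest of the 33 genes in this comparison, at 0.37 (q-value = 0.109). The 3 TGFβ1 arrays lay below the 3 controls for 3 of the 33 genes (*Lig1*, *Tk1*, *Mcm5*), a smaller share than the 18.9% of all probes. By 1 probe per gene, they lay above the 3 controls for 2 of the 33 (*Fen1* and *Pola1*), beside 5839 of 29311 probes. The second *Pola1* probe overlapped.

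The TGFβ1 median differed between slides and without control 6, which cannot be told apart from slide 2 as its sole control. Within slide 1 it was -0.12 and within slide 2 0.03, and 18 of the 33 genes had the same direction on both slides, 14 of them lower. Without control 6 the median was -0.28. With the slide as a block it was -0.09, and 3 genes had a q-value below 0.05 and were lower (*Lig1*, *Tk1* and *E2f1*, beside 15.8% of all probes), while *Fen1* was higher (0.27, q-value = 0.0357, beside 20% of all probes). *E2f1*, one of the activating factors of the E2F family, was at -0.25 in that fit (q-value = 0.0400). With blocks for the slide and for the 3 runs of 5 label numbers, 10 genes were lower at this q-value, beside 21.8% of all probes, and 2 were higher (*Fen1* and *Prim1*), beside 30.3%. *Lig1* was the 1 gene called in both of these fits.

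**Figure D3:**
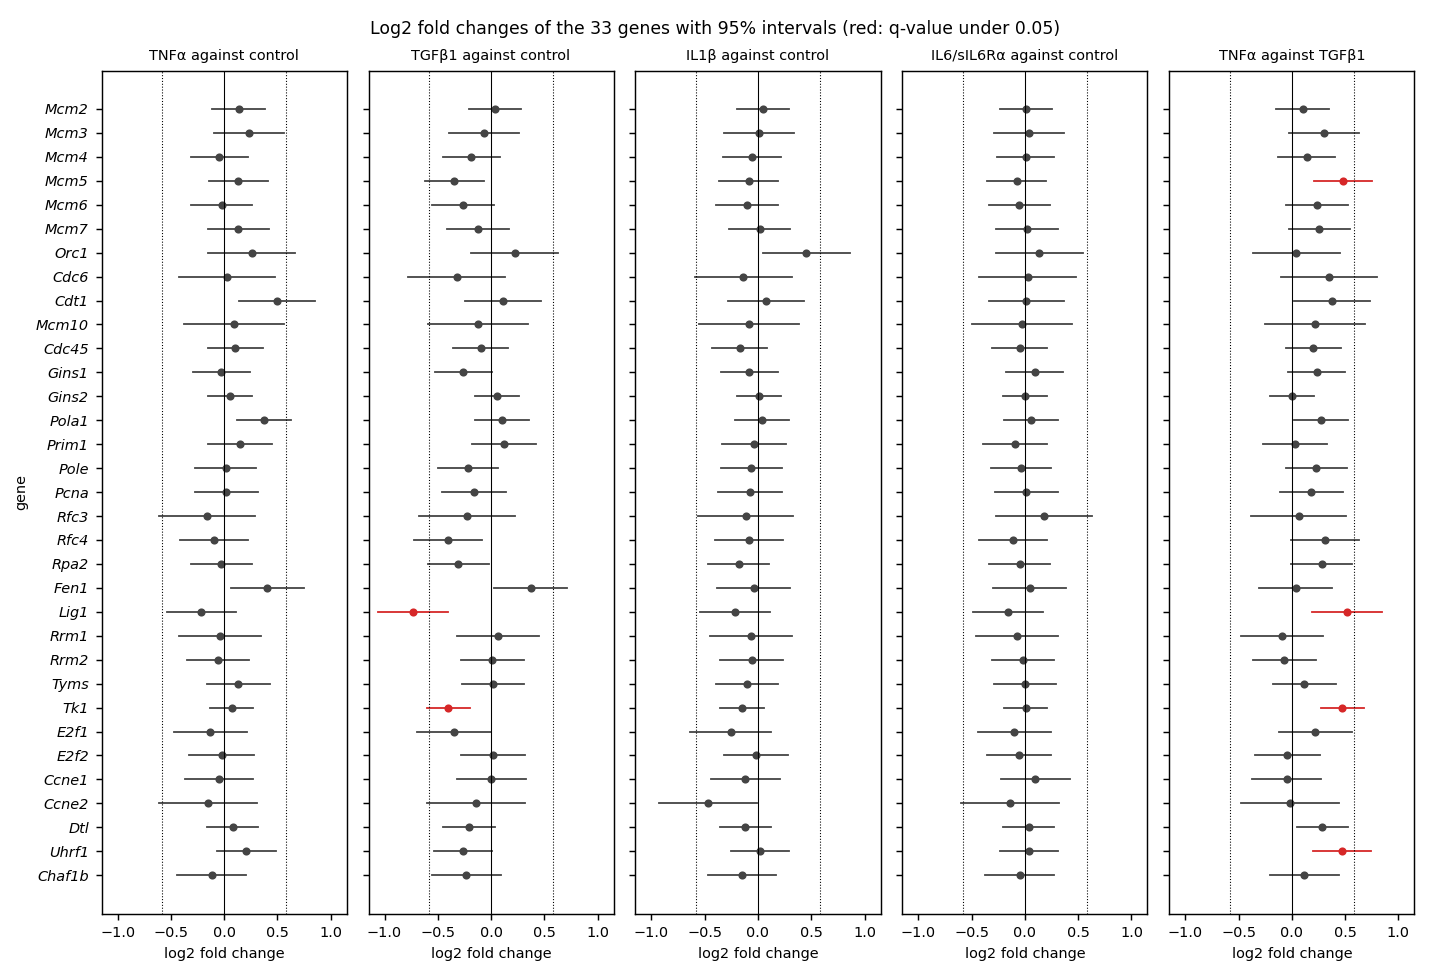
Log2 fold change (point) and 95% interval (line) of each of the 33 genes (vertical axis) in 5 comparisons, with dotted lines at 1.5-fold and red for a q-value below 0.05. *Lig1* and *Tk1* are red against control with TGFβ1, and *Mcm5*, *Lig1*, *Tk1* and *Uhrf1* in the direct comparison of TNFα with TGFβ1.

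With TNFα, 0 of the 33 genes were called in either direction, beside 4.09% of all probes higher and 5.96% lower. On the log2 scale their fold changes ran from -0.21 to 0.49 with a median of 0.03 and 19 values above 0, beside a median of 0.04 for all probes. At an unadjusted p-value below 0.05 in limma's test, 3 genes were higher and 0 lower. *Pola1*, the catalytic subunit of DNA polymerase α that extends the first primers, was 3.66, 3.53 and 3.62 on control arrays 1, 6 and 11, and 4.00, 3.94 and 3.99 on TNFα arrays 4, 9 and 14. The groups did not overlap, and the difference of 0.37 (SE 0.12, q-value = 0.0547) was 0.35 within slide 1 and 0.44 within slide 2. Its second probe was 1.92, 1.48 and 1.86 on the controls and 1.93, 1.90 and 2.13 on the TNFα arrays, which overlap. *Cdt1*, which brings the MCM helicase to origins, was 4.56, 4.25 and 4.71 on the controls and 5.04, 4.93 and 5.02 on the TNFα arrays. The *Cdt1* groups did not overlap (0.49, SE 0.16, q-value = 0.0708). *Fen1*, which trims the flaps of Okazaki fragments, was 5.42, 5.66 and 5.60 on the controls and 6.02, 6.06 and 5.81 on the TNFα arrays (0.41, SE 0.16, q-value = 0.121). Of the others named by smallest p-value, *Uhrf1* was at 0.21, *Mcm3* at 0.23 and *Lig1* at -0.21, with q-values of 0.329, 0.376 and 0.416.

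By 1 probe per gene, the TNFα arrays lay above all controls for 4 of the 33 genes (*Cdt1*, *Fen1*, *Mcm2*, *Pola1*), beside 13.1% of all probes. They lay below all controls for 0 of the 33, beside 4645 of 29306 probes. With the slide as a block, *Mcm3* (0.32), *Pola1* (0.36) and *Fen1* (0.31) had a q-value below 0.05, 3 of 33 genes beside 8.91% of all probes, and with slide and run as blocks 7 of 33, beside 20.8%. None of these was called. The median of the 33 genes was 0.06 within slide 1 and 0.18 within slide 2, with 22 genes higher on both slides and 1, *Lig1*, lower on both. The median fell below 0 when control 6 (-0.096) or TNFα 14 (-0.0024) was left out and with quantile normalization (-0.011).

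**Figure D4:**
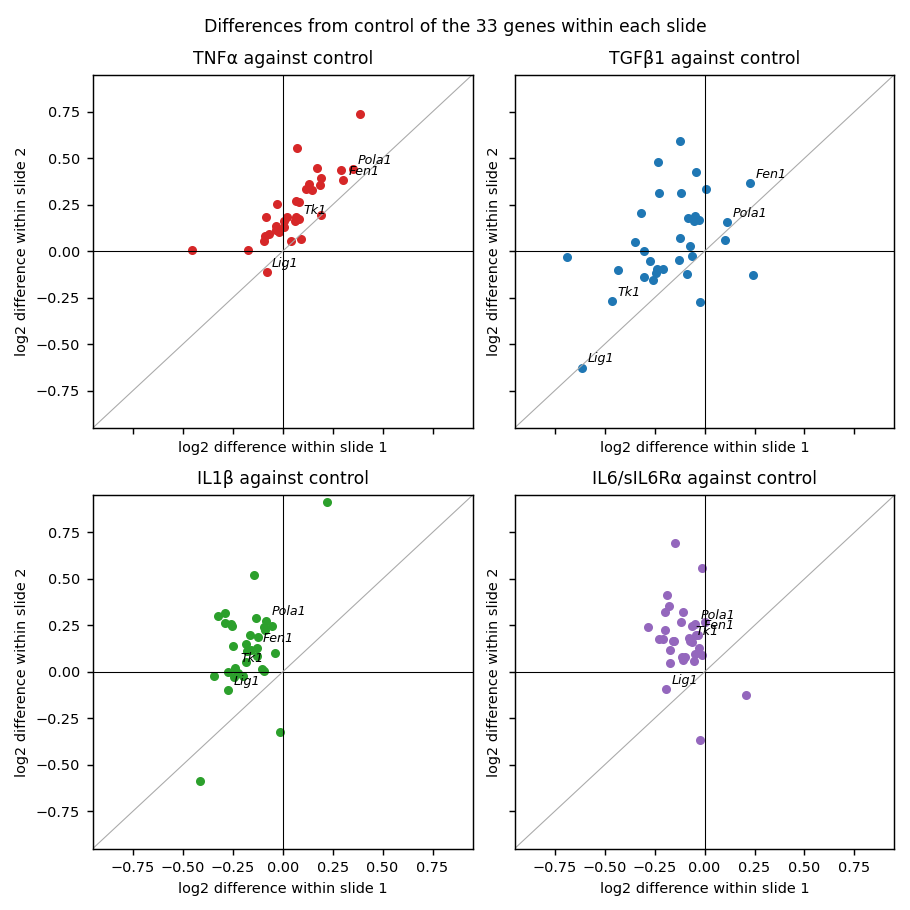
For each cytokine, the log2 difference from control of each of the 33 genes within slide 1 (horizontal axis) and within slide 2 (vertical axis), with a line where both are equal. *Lig1* lies near the line at about -0.61 with TGFβ1, while for IL1β and IL6/sIL6Rα most genes are below 0 on slide 1 and above 0 on slide 2.

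The direct comparison of TNFα with TGFβ1 takes its means from the 6 arrays of these groups, while its errors use the spread of all 15. In it 0 of the 33 genes were called, beside 6.61% of all probes higher with TNFα and 5.17% lower. Without the fold-change threshold, 4 genes were higher with TNFα (7.79% of all probes) and 0 lower (7.34%). These were *Tk1* (0.47, SE 0.09, q-value = 0.00408), *Mcm5* (0.48, SE 0.13, q-value = 0.0219), *Uhrf1* (0.47, SE 0.13, q-value = 0.0230) and *Lig1* (0.52, SE 0.15, q-value = 0.0348). *Mcm5*, a subunit of the replicative helicase, was 4.49, 4.40 and 4.67 on TNFα arrays 4, 9 and 14, and 4.04, 4.09 and 4.00 on TGFβ1 arrays 2, 7 and 12. *Uhrf1*, which reads hemimethylated DNA behind the fork, was 5.30, 5.44 and 5.52 with TNFα and 4.88, 5.09 and 4.89 with TGFβ1. For all 4 genes, by the probe that stands for each, every TNFα array lay above every TGFβ1 array. The second *Tk1* probe was 4.88, 4.69 and 5.33 with TNFα and 4.44, 4.73 and 4.45 with TGFβ1, which overlap. The second probes of *Lig1* and *Uhrf1* did not overlap. With TNFα *Lig1* was 4.62, 4.67 and 5.01, which overlapped the controls.

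The median of the 33 genes was 0.22 (range -0.10 to 0.52), with 28 values above 0, beside a median of -0.04 over all probes. It was 0.24 within slide 1 and 0.17 within slide 2, and 22 genes were higher with TNFα on both slides, but slide 1 holds 1 array of each group (TNFα 14 and TGFβ1 7). Every TNFα array lay above every TGFβ1 array for 13 of the 33 genes, beside 15.8% of all probes. The reverse held for 0 of the 33, beside 5423 of 29317 probes. Besides the 4 genes above, the 13 were *Cdt1*, *Dtl*, *Mcm2*, *Mcm3*, *Mcm7*, *Pola1*, *Pole*, *Rfc4* and *Rpa2*. These counts use 1 probe per gene. Other probes of *Dtl*, *Mcm3*, *Rfc4* and *Tk1* overlapped between the groups, while those of *Lig1*, *Mcm7*, *Pola1* and *Uhrf1* did not. *Dtl*, the substrate receptor through which CDT1 is degraded in S phase, was at 0.29 (q-value = 0.110), and *Pola1* at 0.27 (q-value = 0.156). With the slide as a block 7 genes had a q-value below 0.05 and were higher with TNFα (*Lig1*, *Mcm3*, *Mcm5*, *Mcm7*, *Rpa2*, *Tk1*, *Uhrf1*), beside 11% of all probes. With slide and run as blocks there were 17, beside 17.5%. None of the 33 genes was called in these 3 fits. *Lig1* crossed that threshold when TNFα 4 (0.59) or TGFβ1 7 (0.63) was left out. Over the 28 alternatives run for single genes, the largest q-value by limma's test was 0.134 for *Lig1*, 0.0858 for *Mcm5* and 0.0850 for *Uhrf1*. These genes thus did not keep a q-value below 0.05 in every alternative. For *Tk1* the largest was 0.0414.

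By role, the differences between TNFα and TGFβ1 were above 0 for all 9 licensing genes (median 0.26), all 4 origin firing genes (0.21) and all 9 genes of DNA synthesis at the fork (0.23). They were smaller for the 4 genes of nucleotide supply (0.02), where *Tk1* stood apart from *Rrm1* (-0.10) and *Rrm2* (-0.07), the large and small subunits of ribonucleotide reductase, and from *Tyms* (0.12), which makes thymidylate. Among the 5 genes of G1/S control the median was -0.01, with *E2f1* at 0.22, *E2f2* at -0.04, *Dtl* at 0.29, *Ccne1* at -0.05 and *Ccne2* at -0.01. The last 2 encode cyclins E1 and E2, partners of CDK2 at the start of S phase. *Chaf1b*, a subunit of the chromatin assembly factor that places histones on new DNA, was at 0.11, and *Uhrf1* at 0.47. Of the 33 values, those of *Mcm5*, *Lig1*, *Tk1* and *Uhrf1* had a q-value below 0.05.

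With IL1β, 0 of the 33 genes were called, beside 0.228% of all probes higher and 0.00341% lower. At an unadjusted p-value below 0.05 in limma's test, 1 gene was higher and 1 lower, and no q-value was below 0.05. *Orc1*, the largest subunit of the origin recognition complex, was 0.80, 0.25 and 0.51 on the controls and 1.03, 0.71 and 1.17 on IL1β arrays 5, 10 and 15, which overlap (0.45, q-value = 1.00). *Ccne2* was -3.13, -3.54 and -3.93 on the controls and -4.16, -3.73 and -4.13 on the IL1β arrays (-0.47, q-value = 1.00). The next smallest p-values were those of *Tk1* (-0.15), *E2f1* (-0.26), *Cdc45* (-0.17) and *Lig1* (-0.22). *E2f1* had 2 IL1β arrays, since its spot on IL1β 10 was left out. The median of the 33 genes was -0.08, with 25 values below 0, and all 5 genes of G1/S control and all 4 of nucleotide supply lay below 0. It was -0.18 within slide 1 and 0.13 within slide 2, and 8 of 33 genes had the same direction on both slides.

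With IL6/sIL6Rα, 0 of the 33 genes were called, beside 0.058% of all probes higher and 0% lower, and 0 had an unadjusted p-value below 0.05 in limma's test. The median was 0.00 (range -0.16 to 0.18). The genes with the smallest p-values were *Lig1* (-0.16), *Rfc3* (0.18), *Rfc4* (-0.11), *Gins1* (0.09), a subunit of the GINS complex, *Orc1* (0.13) and *Prim1* (-0.09), the catalytic subunit of primase, each with a q-value of 1.00. Within slide 1 the median was -0.11 and within slide 2 0.17, and without control 6 it was -0.11.

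Since few genes passed a test, the intervals of the fit without slide or run are given, to show which fold changes that fit could exclude. They do not take the slide into account. With IL6/sIL6Rα, 3 of the 33 genes had the same direction on both slides. The 95% interval of the fold change lay wholly within 1.5-fold in either direction for 27 of the 33 genes with TNFα, 21 with TGFβ1, 29 with IL1β and 31 with IL6/sIL6Rα, beside 35.5%, 28.9%, 54% and 55.3% of all probes. The intervals were narrower than those of all probes, with a median half-width of 0.30 on the log2 scale beside 0.43. The probes were not matched for brightness here either. *Pcna*, the clamp itself, was at 0.02 with TNFα (-0.28 to 0.32) and -0.16 with TGFβ1 (-0.46 to 0.14). *Mcm2*, *Mcm4*, *Mcm6* and *Mcm7*, which build the helicase ring with *Mcm3* and *Mcm5*, lay between -0.05 and 0.14 with TNFα and between -0.26 and 0.04 with TGFβ1. *Gins2* was at 0.06 and 0.05, and *Rrm2* at -0.06 and 0.01. *Cdc6* and *Mcm10* had wide intervals with TGFβ1, from -0.78 to 0.13 and from -0.60 to 0.34, so that a 1.5-fold decrease of these genes was not excluded.

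Over all 5 groups, limma's F test gave a q-value below 0.05 for 2 of the 33 genes, *Lig1* and *Tk1*, beside 25% of all probes. In the other 5 comparisons of cytokines with each other 0 of the 33 genes were called, beside 4.69% of all probes for IL1β against TNFα, 16.9% for IL1β against TGFβ1, 0.399% for IL1β against IL6/sIL6Rα, 8.59% for IL6/sIL6Rα against TNFα and 16.3% for IL6/sIL6Rα against TGFβ1. In limma's moderated test *Lig1* was higher with IL1β than with TGFβ1 (0.51, q-value = 0.0276) and higher with IL6/sIL6Rα than with TGFβ1 (0.57, q-value = 0.0173). *Tk1* was higher with IL6/sIL6Rα than with TGFβ1 (0.41, q-value = 0.00851). Each was below 1.5-fold and comes from the fit without slide. The IL1β and IL6/sIL6Rα arrays lie mostly on slide 1 and the TGFβ1 arrays mostly on slide 2. Of the 17 genes with several probes, the sign of the difference disagreed between probes for 4 with TGFβ1, 3 with TNFα, 4 with IL1β, 9 with IL6/sIL6Rα and 2 between TNFα and TGFβ1. *Tk1* with TGFβ1 was the 1 gene whose probes disagreed in the call.

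A second list of 63 genes of replication and of G1/S control outside the 33 was read in the same fit. With TNFα 0 of them were called (4.09% of all probes higher and 5.96% lower). With IL1β (0.228% and 0.00341%) and IL6/sIL6Rα (0.058% and 0%) 0 were called as well. With TGFβ1 3 were called higher and 3 lower (median -0.05), beside 7.51% and 10.4% of all probes. *Timeless*, which holds the helicase and polymerase together at the fork, was 3.68, 3.32 and 3.51 on the controls and 2.53, 2.63 and 2.54 on the TGFβ1 arrays (-0.94, q-value = 0.00153). *Dscc1*, part of an alternative clamp loader, was 1.03, 0.88 and 1.04 on the controls and 0.12, 0.46 and 0.29 with TGFβ1 (-0.70, q-value = 0.00221). The third gene called lower was *Rbl2* (-0.89), a pocket protein of quiescent cells. Those called higher were *E2f8* (0.80), an E2F that represses, *E2f3* (0.90), an activator, and *E2f5* (0.76), which pairs with pocket proteins. Directly against TGFβ1, *Dscc1* (0.82) and *Timeless* (0.76) were called higher with TNFα and *E2f8* (-0.61) lower, beside 6.61% and 5.17% of all probes. The *E2f8* call was lost with quantile normalization (-0.51) and without TNFα 9 (-0.57) or TGFβ1 7 (-0.56).

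Of 12 tested genes that act upstream of E2F, 1 was called higher and 2 lower with TNFα (4.09% and 5.96% of all probes), and 2 higher and 2 lower with TGFβ1 (7.51% and 10.4%). *Cdk6*, a kinase that inactivates the retinoblastoma protein, was higher with both (0.91 and 0.72), and its inhibitors *Cdkn2c* (-0.76 and -0.88) and *Cdkn2d* (-0.74 and -1.04) were lower with both. *Cdkn2d* was not called with TNFα when control 6, control 11 or TNFα 4 was left out. *Myc*, which drives growth and entry into the cell cycle, was 2.37, 0.65 and 2.31 on the controls and 3.35, 3.39 and 3.19 with TGFβ1, and was called higher (1.53, q-value = 0.0198). Control 6 was far below the other 2 controls for *Myc*, and without it the log2 fold change was 0.97 and was not called. The call was also lost without TGFβ1 2 (1.51) or TGFβ1 7 (1.49) and in a fit of the control and TGFβ1 arrays alone (1.53). *Cdkn2b*, a CDK inhibitor known as a TGFβ target, was lower with TNFα than with TGFβ1 (-0.62, q-value = 0.0405), a call lost under 13 of 28 alternatives. With IL1β (0.228% of all probes higher and 0.00341% lower) and IL6/sIL6Rα (0.058% and 0%) 0 of the 12 genes were called. Of 22 genes of G2 and mitosis, 0 were called with TNFα, IL1β or IL6/sIL6Rα, beside the same shares of all probes. With TGFβ1 2 of the 22 were called lower (10.4% of all probes). The medians of the 22 genes were -0.09 with TNFα, -0.07 with IL1β, -0.04 with IL6/sIL6Rα and 0.00 with TGFβ1.

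**Figure D5:**
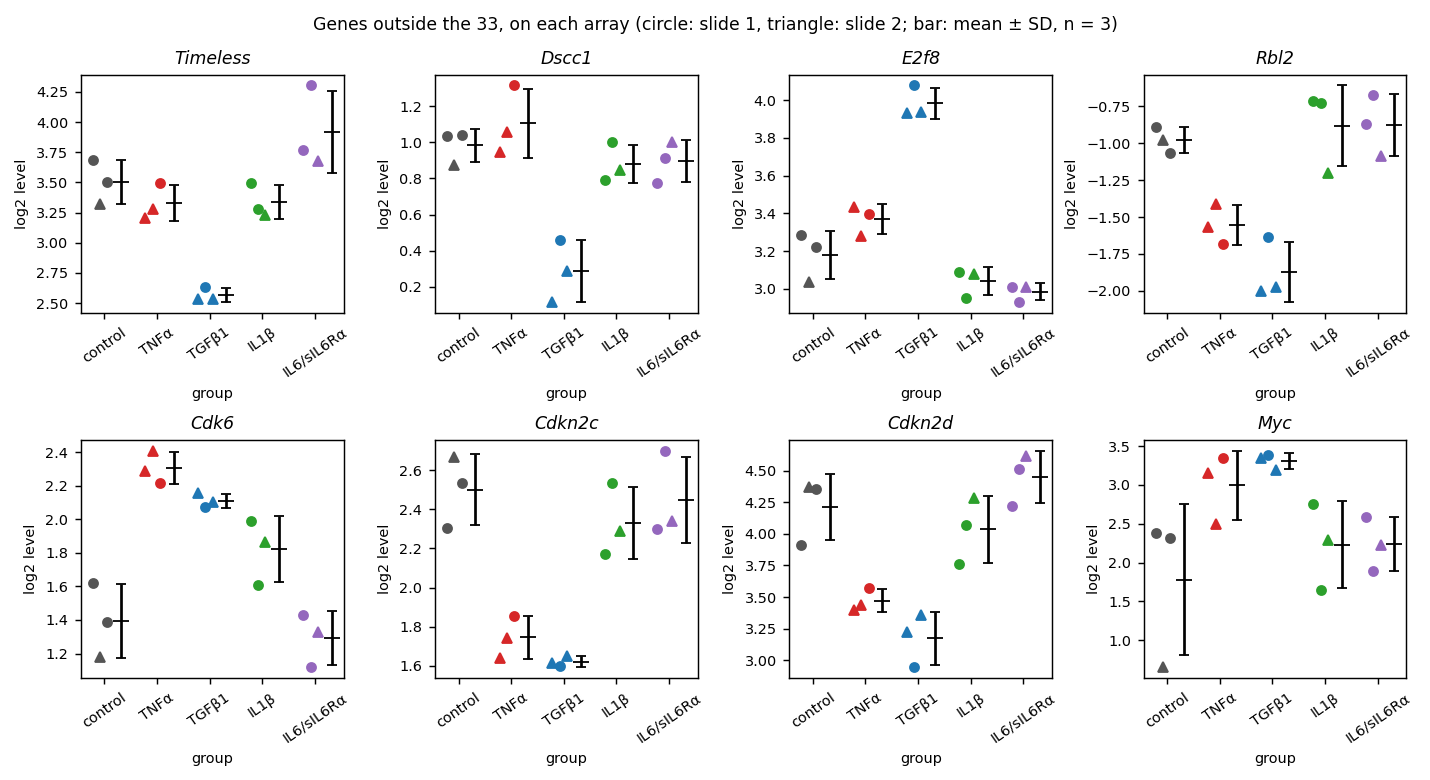
Log2 level of 4 genes of the second list (upper panels) and of 4 genes upstream of E2F (lower panels) on each array, circles for slide 1 and triangles for slide 2, with mean ± SD (n = 3) in black and a vertical range of its own in each panel. In the upper panels *Timeless* and *Dscc1* act at the fork, and *E2f8* and *Rbl2* belong to G1/S control. All TGFβ1 arrays lie below all controls for *Timeless*, *Dscc1*, *Rbl2*, *Cdkn2c* and *Cdkn2d* and above them for *E2f8*, *Cdk6* and *Myc*.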

How the data were processed

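Total RNA of 15 cultures was labelled with Cyanine 3 by the authors, and spots were read with Agilent Feature Extraction 10.7.3.1, as the submitters' processing notes name it. The deposited values are spot intensities after the software's background subtraction, with no normalization between arrays. Spots marked as outliers were left out, repeated spots were averaged per probe as log2 intensity, and each array was scaled by subtracting its own 75th percentile over probes (325 to 445 before log2). A probe was tested if some group had it well above background on all 3 arrays (29334 of 56605). Names came from RefSeq identifiers (33767 probes matched), and a gene with several probes is given by the one with the highest mean. All 15 arrays were fitted with limma 3.58.1 in R 4.3.3 (two-sided moderated tests, Benjamini-Hochberg adjustment over all probes, q-value below 0.05 and 1.5-fold). The script was tested on simulated data. In each comparison the called genes, or the 6 with the smallest p-value, are named. The genes and lists were chosen with earlier results of these data known. With group means and slide removed, all 30 pairs of arrays from different groups and the same run of 5 label numbers correlated positively (r from 0.11 to 0.67), while 2 of 60 pairs from different runs had r above 0.1. The p-values measure the spread between these arrays.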

Additional observations from a re-analysis of the deposited data

Results flagged for a closer look

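Between cytokines, 7 differences of replication genes passed a direct test at a q-value below 0.05 (limma's moderated test), all below 1.5-fold on the full set of arrays. On the log2 scale, TNFα exceeded TGFβ1 by 0.48 for *Mcm5* (q-value = 0.0219), 0.52 for *Lig1* (q-value = 0.0348), 0.47 for *Tk1* (q-value = 0.00408) and 0.47 for *Uhrf1* (q-value = 0.0230). IL1β exceeded TGFβ1 by 0.51 for *Lig1* (q-value = 0.0276). IL6/sIL6Rα exceeded TGFβ1 by 0.57 for *Lig1* (q-value = 0.0173) and by 0.41 for *Tk1* (q-value = 0.00851). The 7 differences share the TGFβ1 arrays. Those of IL1β and IL6/sIL6Rα come from the fit without slide, and no alternative is given for them. IL1β and IL6/sIL6Rα each have 2 arrays on slide 1 and 1 on slide 2, while TGFβ1 has 1 and 2. For *Lig1*, slide 2 minus slide 1 was -0.29 in the fit with group and slide. The IL1β and IL6/sIL6Rα arrays may also differ in time from the TGFβ1 arrays. In some alternatives the q-value of the TNFα difference rose above 0.05, up to 0.0858 for *Mcm5*, 0.134 for *Lig1* and 0.0850 for *Uhrf1*.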

How the results depend on the processing

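Counts of genes called against control with TNFα, IL1β and IL6/sIL6Rα were 0 under every alternative run, and *Lig1* was called lower with TGFβ1 under all 28 alternatives run for single genes. The count of genes called lower with TGFβ1 was 0 at a fold-change of at least 2 and 2 without a fold-change threshold. The TGFβ1 median of -0.14 was -0.17 with normexp background correction, -0.28 with quantile normalization, -0.086 with the slide as a block, -0.080 with slide and run as blocks, -0.16 with the 75th percentile of the file header subtracted (an alternative chosen after seeing the data), -0.16 with the mean over the probes of a gene, and 0.029 within slide 2. Within slide 2 the IL1β median was 0.13, and the IL6/sIL6Rα median was -0.11 within slide 1 and 0.17 within slide 2. The count of genes called higher with TNFα than with TGFβ1 was 1 with quantile normalization (*Lig1*) and 4 without a fold-change threshold. The F test passed 7 genes with quantile normalization (25.2% of all probes), 0 without the filter on dim probes (9.47%), 5 with the slide as a block (37.4%), 18 with slide and run as blocks (59.2%), and 1 with the mean over the probes of a gene (24.9%). The cause of these shifts was not tested.

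Leaving out 1 array at a time, medians ranged from -0.28 to -0.056 for TGFβ1, -0.096 to 0.099 for TNFα, -0.20 to -0.0070 for IL1β, -0.11 to 0.051 for IL6/sIL6Rα and 0.12 to 0.26 for TNFα against TGFβ1. Counts of calls were 1 to 1 for TGFβ1, 0 to 1 for TNFα against TGFβ1 and 0 to 5 for the F test, which passed 0 genes without TGFβ1 2 or TGFβ1 12 and 5 without control 6. With IL6/sIL6Rα 4 uncalled genes changed sign, with ranges of -0.012 to 0.17 for *Gins1*, -0.013 to 0.28 for *Orc1*, -0.075 to 0.37 for *Rfc3* and -0.24 to 0.0017 for *Prim1*. Outside the 33 genes, *E2f5* (0.52 with normexp) lost its call with TGFβ1, and the other calls lost are given beside their genes. The groups share no replicate numbers, and the runs of label numbers, which the fit with slide and run used as a block, are not stated to be experiments. Normexp used the median spot signal. The number of arrays limits all values, with 1 control on slide 2 and 1 TNFα and 1 TGFβ1 array on slide 1.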
